A study of Mus musculus with 6 samples.

Results

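Immediate early genes and the feedback genes of mitogen-activated protein kinase (MAPK) signalling were followed in mouse embryonic fibroblasts with and without Stc1, the gene for the secreted glycoprotein stanniocalcin-1. The set holds 37 genes chosen by name, and each was found at a locus of the deposited tables, of 36812 named loci kept in all. It was split by role into 7 AP-1 subunits, 14 other early genes, 7 Dusp phosphatases, 6 Sprouty and Spred inhibitors and 3 Etv factors. The first pair of groups make up the 21 early genes, and the other three groups make up the 16 feedback genes. GENCODE lists all 37 as protein-coding genes, on 18 chromosomes. The study has 3 libraries of genotype STC1+/+ WT (called WT1 to WT3 here) and 3 of genotype STC1-/- KO (KO1 to KO3), all of background C57BL/6, all grown in the same serum-containing medium. No drug or growth factor treatment is named for either genotype. Which part of Stc1 was disrupted is not stated, and neither is it stated that same-genotype libraries are from different embryos or cultures. The p-values therefore reflect library-to-library spread, and what part of it is technical was not tested.

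Growth factors, cytokines and stress activate the ERK, p38 and JNK kinases, and these kinases act on transcription factors that are already present in the cell. Immediate early genes are switched on within minutes by such factors without new protein synthesis, and most of them encode transcription factors themselves. The products of Fos, Jun and their relatives pair to form AP-1, a DNA-binding dimer that drives later genes of growth, migration and matrix breakdown in fibroblasts. The pathway also switches on its own brakes: Dusp proteins remove the activating phosphates from MAP kinases, and Sprouty and Spred proteins act upstream, between receptor and kinase. Etv1, Etv4 and Etv5 encode ETS-family factors whose transcription follows growth factor signalling in many tissues.

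The libraries held 21882092 to 71488701 estimated fragments. Stc1 had 2245, 291 and 368 fragments in WT1 to WT3 and 6, 0 and 0 in KO1 to KO3. Of 14 fibroblast markers 13 were analysed, and all 13 had fragments in every library. Their summed level was 12812 to 34865 CPM in wild-type and 6648 to 10528 CPM in knockout libraries. CPM here means fragments per 1000000 of effective library size. Of these 13 markers 9 were lower in knockout cells, with a median log2 fold change of -0.80, and the part of this difference in the results below was not tested. Macrophage markers (16 of 17 analysed) were uneven: their summed level was 404, 1645 and 12194 CPM in WT1 to WT3 and 1485, 498 and 546 CPM in KO1 to KO3. No marker of that list was at 0 over all libraries. Single markers differed in their order of libraries. C1qa was at 0.255 CPM in WT1 and at 2.91, 0.188 and 0.377 CPM in KO1 to KO3. In WT2 and WT3 it was at 90.5 and 810 CPM. Csf1r was also lower in KO1 (81.3 CPM) than in WT2 (153 CPM). In contrast, Emr1 and Itgam were higher in KO1 (168 and 122 CPM) than in WT2 (74.7 and 69.3 CPM), so C1qa alone does not stand for the list. Cd68 and Fcer1g alone made up most of the sum in WT1, KO2 and KO3. WT1 stood closer to KO2 than any pair of same-genotype libraries stood to each other: the chi-square per degree of freedom over all loci, which also grows with depth, was 48.9 for WT1 and KO2 and 95.2 to 834 within a genotype.

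No gene of the set passed the test across all genes. edgeR's quasi-likelihood test with Benjamini-Hochberg adjustment called 0 of 15673 loci (0%), and the adjusted p of the 37 genes ran from 0.763 to 0.995. Stc1 itself was not called, with a log2 fold change of -7.72 and an adjusted p of 0.763 in that test. The absence of a call therefore does not show the absence of a difference. At an unadjusted p under 0.05 there were 5 of the 37, all higher in knockout cells: Nr4a2, Fosl2, Dusp5, Dusp6 and Spred3. Over all loci tested that threshold took 3.87%, with 1.6% on the higher side and 2.27% on the lower side. The knockout and wild-type libraries did not overlap for 7 of the 37 genes, against 10.6% of all loci. These were the same 5 genes and Etv1 on the higher side (5.18% of all loci), and Dusp7 on the lower side (5.44% of all loci). The median log2 fold change of the 37 was 0.44, with 22 above 0, while over all loci the median was -0.05 and 44.4% were above 0. DESeq2 called 1 of the 37, Nr4a2, among 61 loci it called in all (0.32% of those it adjusted). From the authors' deposited comparison only entries with the status OK were read, and these gave values for 25 of the 37 genes. Nr4a2, Fosl2 and Spred3 were not among these 25, so the values read here do not bear on them. Among the 25 genes the lowest p was 0.0238, for Ier3, and every q-value was 1.

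Other fits gave other counts at an unadjusted p under 0.05, each set here beside the share of all loci in the same direction. DESeq2 had 8 of the 37 genes higher (1.94% of loci) and 1, Spry1, lower (3.26%). limma-voom had 9 higher (2.27%), limma on log2(FPKM + 1) had 10 (3.39%) and limma on log2(FPKM + 0.1) had 9 (3.28%). Leaving out WT2, WT3 or KO1 left 2 higher genes each (1.19%, 1.6% and 0.858% of loci), and leaving out KO2 or KO3 left 3 each (1.22% and 0.972%). Without KO2, Spry1 was lower (0.842% of loci).

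**Figure D1:**
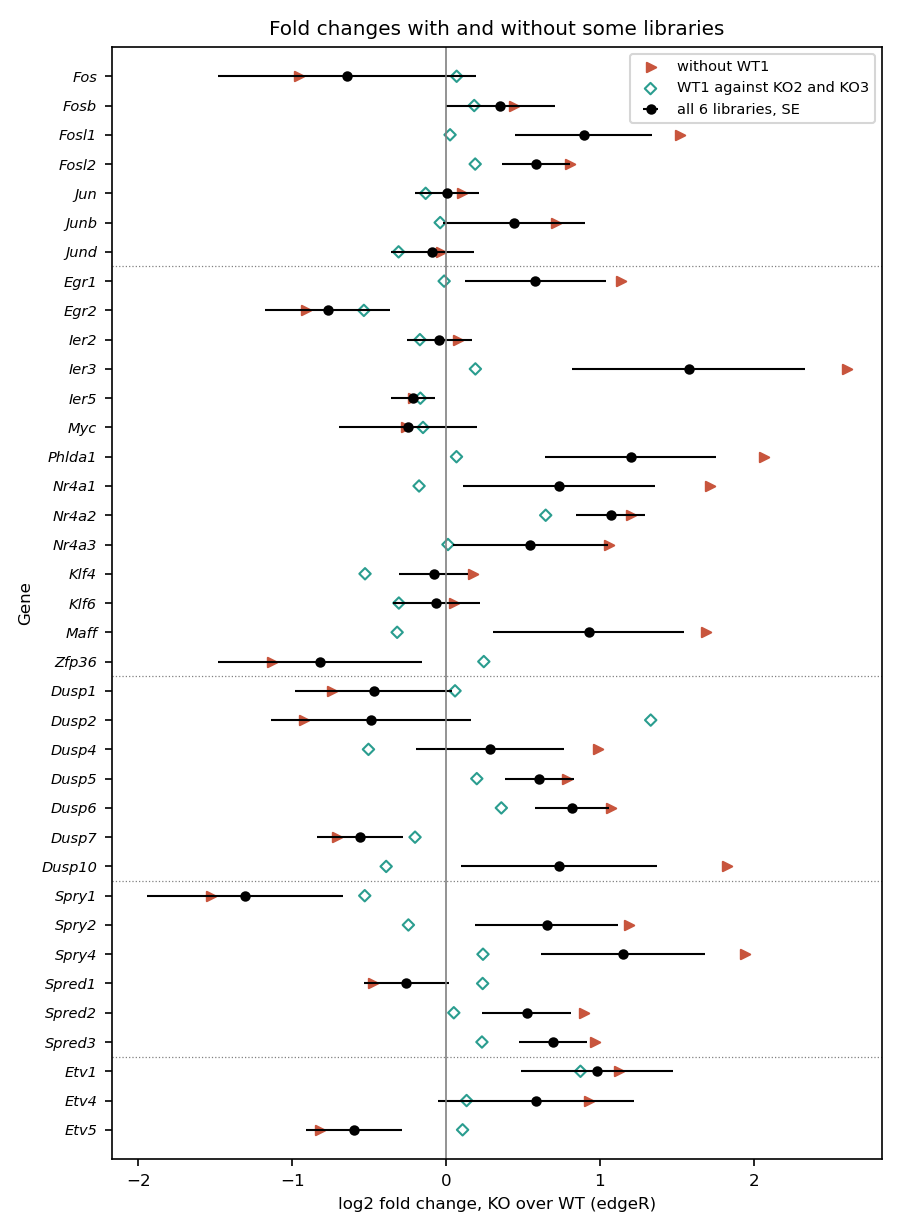
Fold change (log2, knockout over wild-type) of each of the 37 genes (edgeR; black points with standard errors, all 6 libraries), with the values without WT1 (red) and with WT1 against KO2 and KO3 only (green, open). The black points run from -1.31 for Spry1 to 1.58 for Ier3; the red points of Ier3, Phlda1, Spry4 and Dusp10 lie far to the right of the black ones, and most green points lie near 0.

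Among the AP-1 subunits, the Fos relatives are described first. Fosl2 encodes Fra-2, a Fos-family protein that lacks the strong activation domain of Fos. Fosl2 stood at 372, 220.2 and 283 CPM in WT1 to WT3 and at 467, 419.9 and 428 CPM in KO1 to KO3. Every knockout library lay above every wild-type library, with WT1 nearest. The log2 fold change of Fosl2 was 0.59 ± 0.22 (SE) (edgeR, unadjusted p = 0.038, adjusted p = 0.763). Fosl1 encodes Fra-1, the Fos-family protein tied to sustained ERK signalling. Its level was 153, 69.6 and 46.2 CPM in wild-type and 188, 161 and 150.1 CPM in knockout libraries. WT1 lay inside the knockout range of Fosl1, while WT2 and WT3 lay well below it, and the log2 fold change was 0.89 ± 0.44 (SE) (edgeR, adjusted p = 0.763). It was 1.52 without WT1, 0.58 without WT3 and 0.027 with WT1 against KO2 and KO3.

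Fos itself, the founding member of the family, stood at 15.7, 9.25 and 69.9 CPM in wild-type and at 27.7, 24.0 and 8.94 CPM in knockout libraries, so that the groups overlapped and WT3 alone was high. Fosb, which encodes a further Fos-family protein, was low throughout, at 4.12 to 8.36 CPM in wild-type and 6.10 to 10.5 CPM in knockout libraries. Per transcript length, the mean over 6 libraries was 52.1 FPKM (fragments per kilobase of transcript, scaled to library size) for Fosl1 and 48.3 for Fosl2, against 10.7 for Fos and 1.65 for Fosb.

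The Jun proteins are the partners of the Fos family. Jun, the main ERK- and JNK-responsive partner, stood at 168 ± 26.4 CPM in wild-type and 169 ± 34.7 CPM in knockout cells (SD, n = 3 each), which gave a log2 fold change of 0.01 ± 0.21 (SE). Jund, which encodes a Jun protein present in resting cells, stood at 57.6 ± 16.2 against 54.1 ± 10.9 CPM. Junb varied between libraries: it was at 173, 51.6 and 165 CPM in wild-type and at 193, 194 and 143.6 CPM in knockout libraries, with WT2 alone far below the rest.

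Of the other early genes, Nr4a2 gave the lowest p of the set. It encodes Nurr1, an orphan nuclear receptor whose mRNA appears within minutes of cyclic AMP or growth factor signals. Nr4a2 lies on the minus strand of chromosome 2 in mm10, from 57106830 to 57124003. Its level was 22.1, 16.2 and 18.5 CPM in WT1 to WT3 and 50.0, 35.4 and 33.9 CPM in KO1 to KO3. The knockout libraries were all higher, and WT1 was again the highest wild-type library. The fold change was 2.10, or 1.07 on the log2 scale ± 0.22 (SE) (edgeR, unadjusted p = 0.00291, adjusted p = 0.763; DESeq2, adjusted p = 0.0268). The 18 alternative fits reuse the same 6 libraries, and in some of them a group has 1 library, so they are no independent support. Nr4a2 was also singled out for its low p. Its log2 fold changes over these fits were 0.65 to 1.53, and DESeq2 alone called it after adjustment. Nr4a2 kept an unadjusted p under 0.05 in the 6 edgeR fits that left out 1 library.

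The 3 Nr4a genes shared an order in which WT1 and every knockout library lay above WT2 and WT3. Nr4a1, which encodes Nur77, stood at 323, 56.8 and 110.2 CPM in wild-type and at 244, 333 and 239 CPM in knockout libraries. WT1 was thus near the highest knockout library, and WT2 and WT3 were below every knockout library. Nr4a3, which encodes Nor-1, was scarce, with 2.46 to 9.80 CPM in wild-type and 7.37 to 10.8 CPM in knockout libraries.

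Ier3 had the largest fold change of the set and also the largest spread. It encodes a short-lived stress-response protein that is a substrate of ERK. Its level was 290.4, 37.5 and 105 CPM in WT1 to WT3 and 628, 395 and 268 CPM in KO1 to KO3, a 16.8-fold range over the 6 libraries. WT1 lay above KO3, and the log2 fold change of 1.58 had a standard error of 0.76 (edgeR, unadjusted p = 0.0832, adjusted p = 0.763). Per transcript length Ier3 had the highest mean of the set over the 6 libraries, 232 FPKM, at 30.4 to 225 FPKM in wild-type and 221 to 506 FPKM in knockout libraries. In WT2 it lay below Myc, Klf6 and Jun, which were at 55.4, 50.9 and 41.6 FPKM. Phlda1, a pleckstrin-domain gene that follows ERK activity in many cell types, showed the same order of libraries. It stood at 139.9, 39.3 and 42.0 CPM in wild-type and 215 and 166 CPM in KO1 and KO2, and at 127 CPM in KO3, below WT1 (log2 fold change 1.20, standard error 0.56). Maff, a small Maf transcription factor gene, ranged from 32.2 to 137 CPM in wild-type and from 76.3 to 211 CPM in knockout libraries; the authors marked its estimate as failed in WT3.

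Egr1, a zinc-finger factor gene that responds to serum through ETS factors and serum response factor, stood at 289, 105 and 135 CPM in wild-type and at 219, 377 and 196 CPM in knockout libraries. Egr2, a related factor of Schwann cells and myeloid cells, went the other way, at 16.7 ± 6.38 CPM in wild-type and 9.77 ± 3.70 CPM in knockout cells (SD, n = 3 each). Neither was apart between genotypes. Myc, the growth-promoting factor, was highest in WT2 at 125 CPM and lowest in WT3 at 36.1 CPM, with the knockout libraries between them.

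Several early genes were close to level. Ier2, a regulator that answers growth factors, stood at 47.7 ± 7.70 CPM in wild-type and 46.3 ± 9.67 CPM in knockout cells. Ier5, whose product acts with heat shock factor, stood at 98.5 ± 8.99 against 84.9 ± 8.67 CPM. The Krüppel-like factor genes Klf4 and Klf6 had log2 fold changes of -0.08 and -0.06, with standard errors of 0.23 and 0.29. Ier5 had the narrowest range of the set, 1.36-fold over the 6 libraries. Zfp36, which encodes tristetraprolin, the protein that marks AU-rich mRNAs for decay, was at 159 CPM in WT3 and at 30.4 to 48.3 CPM in the other 5 libraries.

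**Figure D2:**
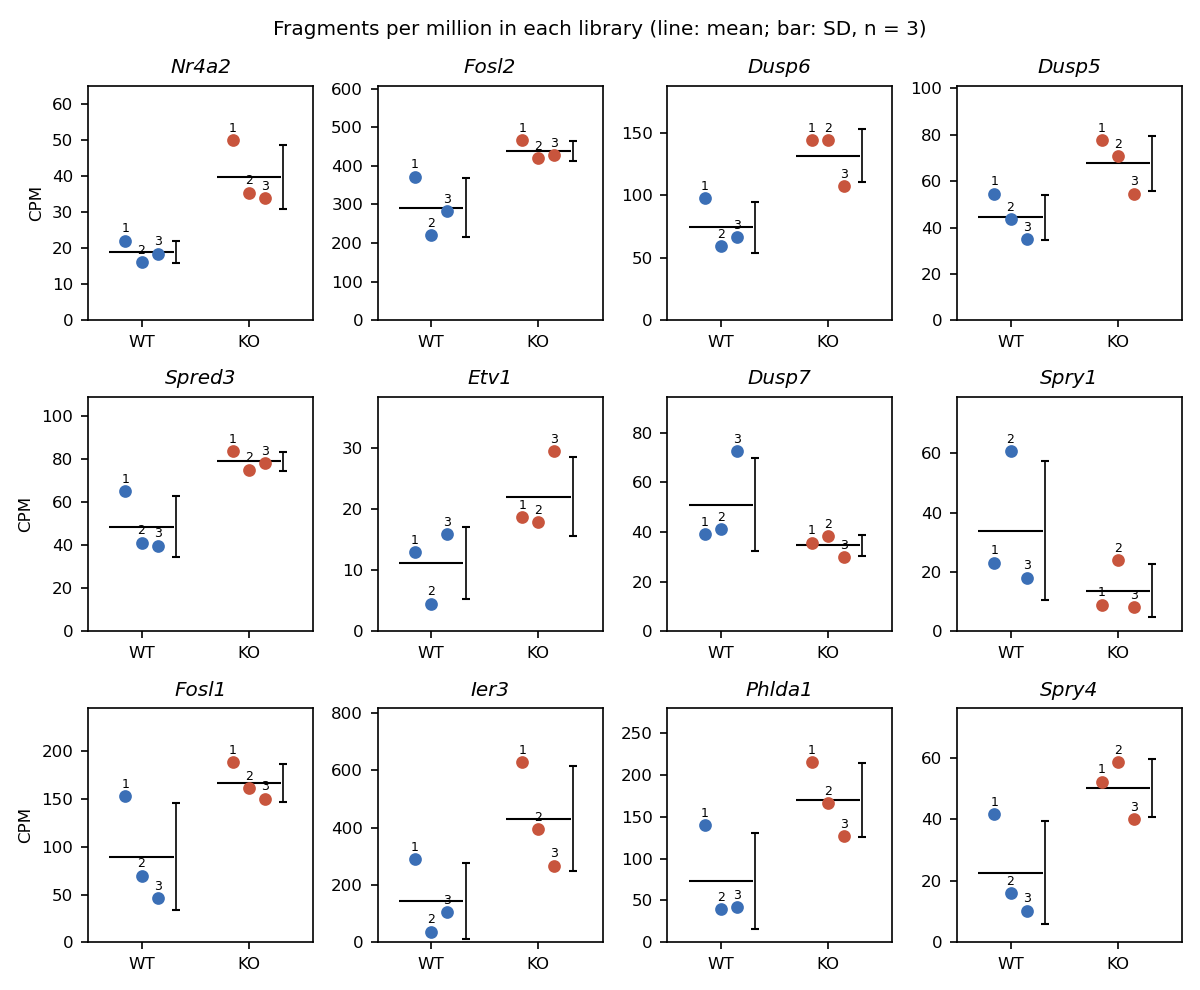
Level of 12 genes of the set in each library (CPM; blue, wild-type; red, knockout; the small digit is the replicate; line, mean; bar, SD, n = 3). Nr4a2, Fosl2, Dusp6, Spred3 and Etv1 do not overlap between genotypes and Dusp5 only just, Dusp7 is the gene apart on the lower side, and in Fosl1, Ier3, Phlda1 and Spry4 WT1 stands well above WT2 and WT3.

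Of the 7 Dusp genes, 4 had a log2 fold change above 0 and 3 below. Dusp6 encodes MKP-3, a cytoplasmic phosphatase specific for ERK whose transcription follows ERK activity. It lies on the plus strand of chromosome 10 in mm10, from 99263231 to 99267488. Dusp6 stood at 98.0, 59.6 and 66.4 CPM in wild-type and 144.2, 144.3 and 107 CPM in knockout libraries, with no overlap. The fold change was 1.77, or 0.82 on the log2 scale ± 0.24 (SE) (edgeR, unadjusted p = 0.0147, adjusted p = 0.763). The 18 alternative fits all reuse the same 6 libraries. In 16 of them, including the 6 that left out 1 library, the unadjusted p of Dusp6 stayed under 0.05. With WT1 against KO2 and KO3 its log2 fold change was 0.36 (edgeR, unadjusted p = 0.217). Of those 6 fits, Dusp5 and Spred3 kept an unadjusted p under 0.05 in 2 each, and Fosl2 in 1.

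Dusp5 encodes a nuclear phosphatase specific for ERK and lies on the plus strand of chromosome 19, from 53529109 to 53542431. Its level was 54.6, 43.6 and 35.1 CPM in wild-type and 77.7, 70.9 and 54.6 CPM in knockout libraries. KO3 and WT1 were thus equal to the printed precision, and Dusp5 counts as apart only by that hair. The log2 fold change was 0.61 ± 0.22 (SE) (edgeR, unadjusted p = 0.0349, adjusted p = 0.763).

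Dusp7, a close relative of Dusp6 whose product also acts on ERK, lay on the other side. It is on the plus strand of chromosome 9, from 106368632 to 106375724. It stood at 39.2, 41.2 and 72.5 CPM in wild-type and at 35.7, 38.3 and 30.0 CPM in knockout libraries. WT1 and KO2 were less than 1 CPM apart, and WT3, the library with the most macrophage marker RNA, was the only one far above the others. The log2 fold change of Dusp7 was -0.56 ± 0.28 (SE) (edgeR, unadjusted p = 0.0932), and it was -0.22 without WT3.

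Dusp4 and Dusp10 had high values in WT1 as well as in the knockout libraries. Dusp4 encodes a nuclear phosphatase induced by ERK, and it stood at 429, 131 and 169 CPM in wild-type and at 284, 373 and 232 CPM in knockout libraries. Dusp10, whose product prefers p38 and JNK, stood at 96.1, 21.6 and 22.5 CPM in wild-type and 87.0, 89.3 and 57.6 CPM in knockout libraries. In both genes WT1 was the highest of all 6 libraries, and WT2 and WT3 were below every knockout library. Dusp1, the stress-induced nuclear phosphatase MKP-1, was highest in WT3 at 141 CPM and ran from 38.9 to 79.0 CPM elsewhere. Dusp2, a phosphatase gene of blood cells, was nearly silent at 0.170 to 0.931 CPM and was the 1 gene of the set with a mean under 1 CPM.

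The region before the transcription start is shown for Nr4a2, Dusp5, Dusp6 and Dusp7, because the first 3 stood higher in knockout libraries and the fourth lower. Sequences are from the RefSeq promoter table (GRCm38, the assembly called mm10 here), read 5′ to 3′ on the gene's strand and ending just before the first base of the gene in the deposited files. Capitals mark 2 short motifs on either strand: TGACG, the core of the cyclic AMP response element, and the CArG box, bound by serum response factor.
Nr4a2, chr2:57124004-57124253, minus strand: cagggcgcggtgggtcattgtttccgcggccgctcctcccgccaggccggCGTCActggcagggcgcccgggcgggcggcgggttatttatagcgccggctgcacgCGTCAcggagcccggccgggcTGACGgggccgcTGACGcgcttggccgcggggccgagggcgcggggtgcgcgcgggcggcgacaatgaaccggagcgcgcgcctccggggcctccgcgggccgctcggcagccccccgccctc
Dusp5, chr19:53528895-53529108, plus strand: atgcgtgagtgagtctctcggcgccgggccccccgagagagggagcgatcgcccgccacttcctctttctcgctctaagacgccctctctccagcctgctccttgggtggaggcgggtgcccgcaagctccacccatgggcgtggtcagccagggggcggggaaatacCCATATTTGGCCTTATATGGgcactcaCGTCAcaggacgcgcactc
Dusp6, chr10:99262981-99263230, plus strand: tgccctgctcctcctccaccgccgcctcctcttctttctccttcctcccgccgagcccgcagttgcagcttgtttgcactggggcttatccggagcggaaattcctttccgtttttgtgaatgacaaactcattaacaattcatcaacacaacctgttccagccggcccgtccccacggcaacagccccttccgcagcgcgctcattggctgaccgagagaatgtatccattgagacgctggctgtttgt
Dusp7, chr9:106368382-106368631, plus strand: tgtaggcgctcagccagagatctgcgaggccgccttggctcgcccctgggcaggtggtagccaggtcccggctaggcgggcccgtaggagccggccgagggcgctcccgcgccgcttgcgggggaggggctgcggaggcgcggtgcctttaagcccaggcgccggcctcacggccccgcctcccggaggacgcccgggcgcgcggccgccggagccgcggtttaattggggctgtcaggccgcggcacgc

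The Nr4a2 window held 4 copies of TGACG and no CArG box. The Dusp5 window held 2 CArG boxes side by side and 1 TGACG, and the windows of Dusp6 and Dusp7 held neither motif. Promoter windows of 250 bases before the RefSeq start were found for 29 of the 37 genes. These genes have 37 windows in the table, since a gene can have several starts. TGACG was in 15 of the 37 windows, of 12 genes, against 17.8% of all 32851 windows of that length. A CArG box was in 6 of the 37 windows, of Dusp5, Egr2 and Zfp36, against 1.47% of all windows; windows of 1 gene can overlap. The full element TGACGTCA, which contains TGACG, was in windows of Dusp1 and Maff (1.55% of all windows), and the AP-1 site TGANTCA was in none (6.75% of all windows). No window was found for Egr1, Fosl1, Spry4, Myc, Ier2, Etv4, Dusp4 and Phlda1. A match is a description of letters and says nothing of binding.

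Of the 6 Sprouty and Spred genes, 4 had a log2 fold change above 0 and 2 below. Spry4 and Spry2 encode inhibitors induced by fibroblast growth factor signalling. Spry4 stood at 41.7, 15.9 and 10.3 CPM in wild-type and at 52.2, 58.6 and 40.0 CPM in knockout libraries. Spry2 stood at 124, 46.8 and 60.0 CPM in wild-type and at 154, 139 and 70.9 CPM in knockout libraries. In both genes WT1 was above KO3, and WT2 and WT3 were below every knockout library. Spry1, their close relative, was lower on average in knockout cells, with 23.1, 60.8 and 18.1 CPM in wild-type and 9.02, 24.0 and 8.19 CPM in knockout libraries. Its log2 fold change was -1.31 ± 0.64 (SE) (edgeR, unadjusted p = 0.0872), and it was -0.57 without WT2, the library with the highest level, and -1.98 without KO2.

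Spred proteins hold the Ras regulator neurofibromin at the membrane. The locus that carries Spred3 stood at 65.2, 41.2 and 39.9 CPM in wild-type and at 83.8, 75.2 and 78.2 CPM in knockout libraries, without overlap (edgeR, log2 fold change 0.70, standard error 0.22, unadjusted p = 0.0209). That locus also carries Fam98c, so its fragments cannot be assigned to Spred3 alone. Spred2 stood at 68.2 ± 26.9 against 98.1 ± 9.83 CPM, with WT1 inside the knockout range, and Spred1 at 117 ± 39.8 against 98.3 ± 11.7 CPM (wild-type against knockout, SD, n = 3 each).

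Of the Etv factors, Etv1 stood apart on the higher side. Its level was 13.0, 4.54 and 15.975 CPM in wild-type and 18.7, 18.0 and 29.6 CPM in knockout libraries (edgeR, log2 fold change 0.98, standard error 0.49, unadjusted p = 0.0933). Without WT2, its lowest library, the log2 fold change was 0.63. Etv4 was even in 5 libraries, at 36.8 to 45.1 CPM, and low only in WT3 at 6.19 CPM. Etv5 was lower on average in knockout cells, at 27.3, 41.3 and 55.7 CPM in wild-type and 23.2, 24.1 and 34.6 CPM in knockout libraries, with WT1 below KO3.

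Early and feedback genes were then compared as groups, as a description with no test. Of the 21 early genes 12 had a log2 fold change above 0, with a median of 0.35, and 2 (9.52%) had an unadjusted p under 0.05. Of the 16 feedback genes 10 were above 0, with a median of 0.55, and 3 (18.8%) had an unadjusted p under 0.05, against 3.87% of all loci. Libraries did not overlap between genotypes for 2 of the 21 early genes (9.52%) and 5 of the 16 feedback genes (31.2%), against 10.6% of all loci, so the early genes were near the background share. Of these 5 feedback genes 4 were higher in knockout libraries and 1, Dusp7, was lower. Dusp5 counts among the 4 only by a hair, and the Spred3 locus also carries Fam98c. The difference between early and feedback genes was not tested. Each gene was also set to its own mean over the 6 libraries. On that log2 scale the early genes averaged 0.23, -0.72 and -0.13 in WT1 to WT3 and 0.34, 0.40 and -0.12 in KO1 to KO3. The feedback genes averaged 0.08, -0.32 and -0.27 in wild-type and 0.21, 0.27 and 0.03 in knockout libraries. WT1 was thus above KO3 in both groups, and WT2 was the lowest library in both. The early minus the feedback average was 0.15, -0.40 and 0.14 in wild-type and 0.13, 0.13 and -0.15 in knockout libraries, and the genotypes overlapped.

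**Figure D3:**
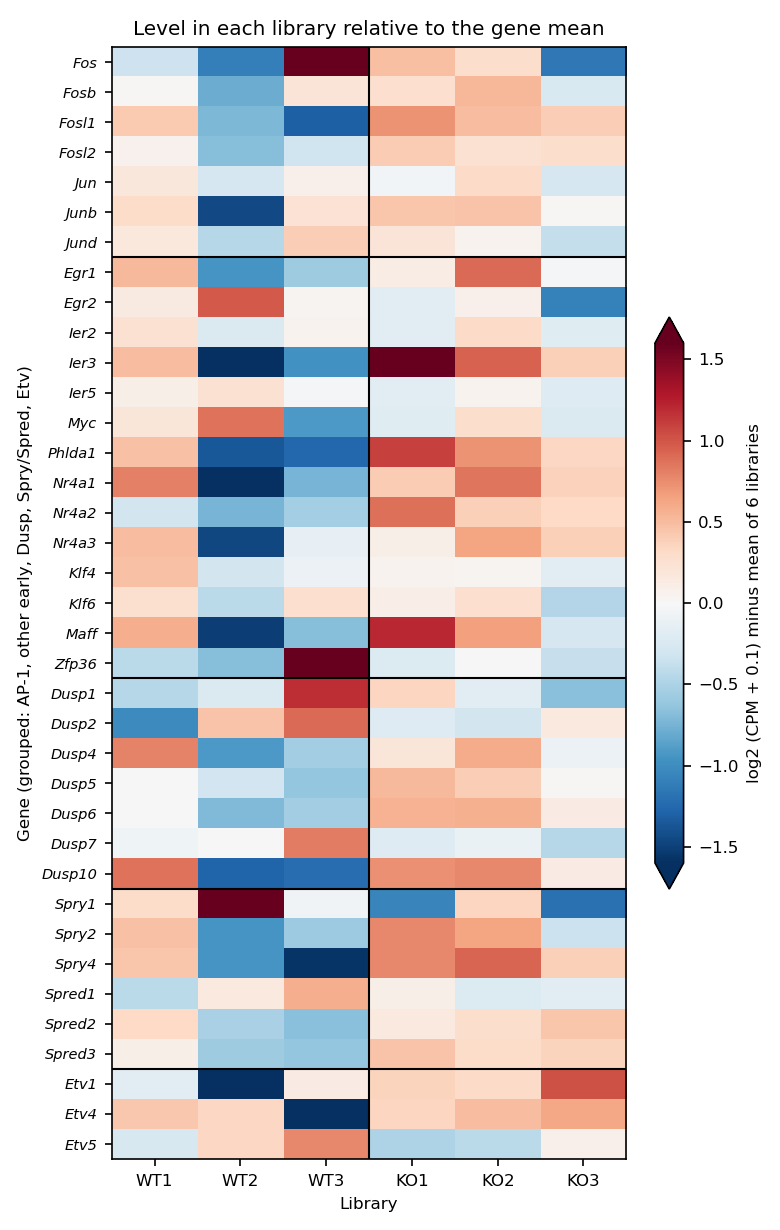
Level of each of the 37 genes in each library, as log2 (CPM + 0.1) minus the mean of that gene over the 6 libraries (red, above the mean; blue, below; black lines divide the groups of genes and the genotypes; colours stop at 1.6). The WT2 column is blue for most early genes, the WT1 column resembles the knockout columns in many rows, and Fos, Zfp36, Dusp1 and Dusp7 are red in WT3.

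Much of the difference lay between wild-type libraries. WT2 was the lowest of the 6 libraries for 20 of the 37 genes (54.1%), against 28.6% of all loci tested. It was lowest for 15 of the 21 early genes and for 5 of the 16 feedback genes. WT1 and all 3 knockout libraries lay above WT2 and WT3 for 18 of the 37 genes (48.6%), against 18.4% of all loci. These 18 were Fosl1, Fosl2, Egr1, Ier3, Phlda1, all 3 Nr4a genes, Maff, Dusp4, Dusp5, Dusp6, Dusp10, Spry2, Spry4, Spred2, Spred3 and Etv4. Without WT1, the median log2 fold change of the 37 genes was 0.79, and 16 genes were higher and 1, Etv5, was lower at an unadjusted p under 0.05. The log2 fold changes of Ier3, Phlda1 and Spry4 were then 2.61, 2.06 and 1.94, and with WT1 against KO2 and KO3 they were 0.19, 0.068 and 0.24. These genes are among the 18 picked for a high WT1. Their shifts lean that way by that choice and show nothing further. All loci gave more at an unadjusted p under 0.05 too without WT1, 10.1% on the higher and 8.31% on the lower side, and edgeR still called 0 after adjustment. With WT1 set against KO2 and KO3 only, the 3 libraries with the least macrophage marker RNA, the median was 0.03, and Nr4a2 (0.65) was the 1 gene higher and Klf4 (-0.53) the 1 gene lower at an unadjusted p under 0.05 (2.09% and 1.4% of all loci). In the other 3 libraries, WT2 and WT3 against KO1, the median was 0.77, and 9 genes were higher at that p (2.83% of all loci). Where a group has 1 library in these fits, that library is assumed to vary like the others.

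Macrophage marker RNA was highest in WT3, with a summed marker level of 12194 CPM. WT3 was the highest library for 8 of the 37 genes (21.6%), Fos, Zfp36, Dusp1, Dusp2, Dusp7, Jund, Spred1 and Etv5, against 28.9% of all loci. Genes picked for a high wild-type library lean to negative fold changes by that choice, so their signs show nothing further. Without WT3 the log2 fold changes were 0.69 for Fos, 0.36 for Zfp36, 0.23 for Dusp1, 0.096 for Jund, 0.026 for Dusp2, 0.011 for Spred1, -0.22 for Dusp7 and -0.33 for Etv5. With the mean macrophage marker level as a covariate, Nr4a2, Dusp6, Phlda1, Spry4, Fosl1 and Spred3 had an unadjusted p under 0.05, all higher (2.59% of all loci), and Fos had a log2 fold change of 0.10. Whether macrophages made part of the Fos, Zfp36 or Dusp1 RNA was not tested, and in bulk RNA fewer cells of a type and less RNA per cell cannot be told apart.

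**Figure D4:**
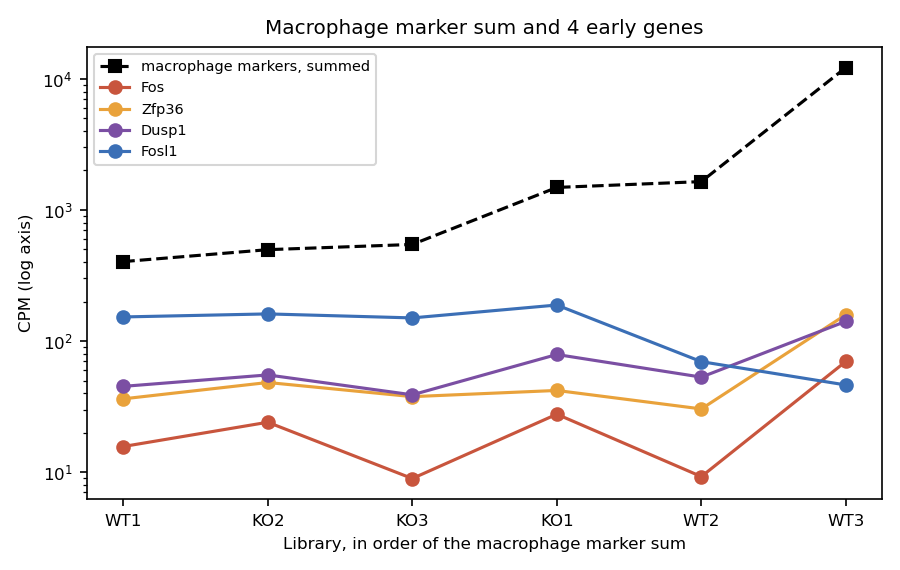
Summed level of 16 macrophage markers (black squares, dashed) and levels of Fos, Zfp36, Dusp1 and Fosl1 in each library (CPM, log axis), with libraries in the order of the marker sum. Fos, Zfp36 and Dusp1 peak in WT3, where the marker sum is 12194 CPM, while Fosl1 is lowest there, at 46.2 CPM.

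Ratios between relatives were taken inside each library, where library scaling cancels. Of 44 pairs within the Fos, Jun, Egr, Nr4a, Klf, Dusp, Sprouty, Spred and Etv families, 8 (18.2%) did not overlap between genotypes, against 10.8% of all pairs of loci tested. The pairs share genes, so they are not independent. A pair apart on the lower side was turned over, so every ratio named as apart is higher in knockout libraries by that choice. The FPKM ratio of Dusp6 to Dusp7 was 2.59, 1.58 and 1.03 in WT1 to WT3 and 4.68, 4.02 and 3.62 in KO1 to KO3. For Spry4 to Spry1 it was 0.844, 0.122 and 0.266 in wild-type and 2.68, 1.14 and 2.28 in knockout libraries. Spry4 thus exceeded Spry1 per transcript length in every knockout library and in no wild-type library. The ratio of Etv1 to Etv5 was 0.238, 0.0610 and 0.150 in wild-type and 0.395, 0.411 and 0.465 in knockout libraries. In these 3 pairs WT1 was the wild-type library closest to the knockout range. Spry2 to Spry1, Dusp5 to Dusp7, Dusp10 to Dusp4 and Junb to Jund also did not overlap, nor did Junb to Jun on the CPM scale, where the gap was 0.002 in log2. None of the 6 pairs of Fos relatives and none of the 3 Nr4a pairs was apart.

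**Figure D5:**
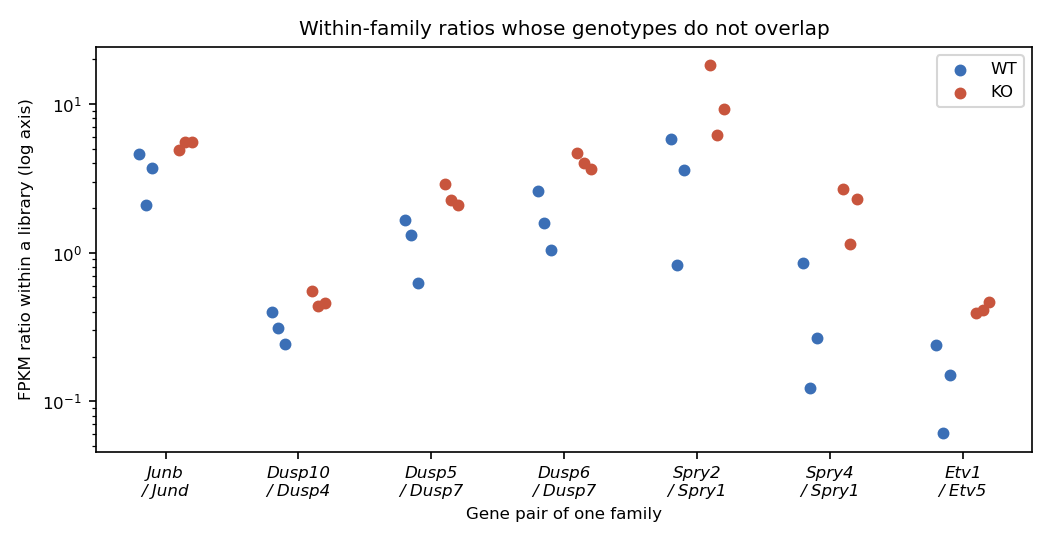
FPKM ratio of one gene to a relative within each library (log axis; blue, wild-type; red, knockout; 3 libraries each), for the 7 pairs whose genotypes do not overlap on both the CPM and the FPKM scale. Pairs apart on the lower side were turned over, so each red group lies above its blue group by that choice. The gaps are widest for Etv1 to Etv5, Dusp6 to Dusp7 and Spry4 to Spry1.

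Other genes of the pathway gave a mixed picture, and edgeR called none of them after adjustment. Of 33 tested ERK cascade genes, 0 were higher and 1 (3.03%) was lower at an unadjusted p under 0.05, against 1.6% and 2.27% of all loci. The median log2 fold change of the 33 was -0.03. The lower gene was Rps6ka5, which encodes the nuclear kinase MSK1 that acts at early gene promoters, at 7.49 ± 2.08 CPM in wild-type and 4.46 ± 0.17 CPM in knockout cells (SD, n = 3 each). The ETS factor gene Ets2 came next by p, at 78.1 ± 10.2 against 107 ± 24.4 CPM. The 18 genes of the p38 and JNK cascades had a median of 0.09 and none under that p. Creb1, the cyclic AMP-responsive factor gene, and the JNK2 gene Mapk9 had the lowest p there, with log2 fold changes of -0.43 and 0.35. Of 17 growth factor receptor genes 1 (5.88%) was higher at an unadjusted p under 0.05 in edgeR, against 1.6% of all loci. This was Epha2, an ephrin receptor gene induced by ERK, at 77.8 ± 11.6 against 111 ± 13.3 CPM. The hepatocyte growth factor receptor gene Met had a log2 fold change of 0.61 and an unadjusted p of 0.0791 in edgeR.

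Of 34 tested early response genes outside the set, 0 were higher and 1 (2.94%) was lower at an unadjusted p under 0.05 in edgeR, against 1.6% and 2.27% of all loci. The median log2 fold change of the 34 was 0.21. The lower gene was Gadd45g, a stress-response gene, at 84.6 ± 29.9 CPM in wild-type and 38.9 ± 9.30 CPM in knockout cells. Errfi1, which encodes the EGF receptor inhibitor Mig-6, stood at 186 ± 24.5 against 257 ± 47.2 CPM without overlap. It is 1 of 7 of these 34 genes (20.6%) without overlap, against 10.6% of all loci. Of 21 tested further output and phosphatase genes, 4 (19%) had an unadjusted p under 0.05 in edgeR, against 3.87% of all loci. Lif and Dusp16 were higher, and Emp1 and Vgf were lower. Dusp16 and Vgf are named after their values were seen. Emp1, a membrane protein gene, was at 886, 1221 and 933 CPM in wild-type and at 469.8, 652 and 699 CPM in knockout libraries. The cytokine gene Lif was at 141, 18.2 and 21.7 CPM in wild-type and at 427, 276 and 297 CPM in knockout libraries, again with WT1 the nearest wild-type library.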

How the data were processed

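Messenger RNA was measured in 6 libraries prepared with a stranded poly(A) kit, per the labels' protocols. The submitters' processing notes name CASAVA 1.8.2, TopHat2 2.0.6, Cuffdiff 2.0.1 and mm10, with no role or order. Per the file headers, the authors deposited for each locus an estimated count of fragments, an FPKM value and a status. The deposited comparison table of the authors gives a p-value, a q-value, a log2 fold change and mean FPKM values. Estimated counts were not whole for 24.2% of values above 0 and were rounded. Loci without a gene name (2667 of 39495, 0.507% to 0.555% of fragments) and 16 loci marked HIDATA, whose value of 0 is no measurement, were left out, and the 1132 loci marked FAIL were kept.

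Knockout was tested against wild-type over 15673 loci by the robust quasi-likelihood F test of edgeR 4.0.16, run in R 4.3.3, after filterByExpr and TMM scaling, with Benjamini-Hochberg adjustment and a threshold of 0.05. All 37 genes passed the filter. The biological coefficient of variation was 0.467. Standard errors are the log2 fold change over the root of F. DESeq2 1.42.0, limma 3.58.1 on counts (voom), log2(FPKM + 1) and log2(FPKM + 0.1), other scalings and filters, a macrophage covariate and left-out libraries were alternatives. The fit was first tested on simulated data. All libraries differed beyond sampling noise. Loci were matched by gene name, and 8 of the 37 overlap a named locus on the other strand (Fosl1, Jun, Junb, Jund, Maff, Zfp36, Dusp10, Spred3). Use of strand in counting is not stated, so their reads may be shared. Named genes were all 37, with values in every library for those that results turn on, and from each other pathway list the 2 with the smallest p. The genes and lists were chosen with earlier results of these data known. The named pairs of relatives were chosen after their values were seen.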

Additional observations from a re-analysis of the deposited data

How the results depend on the processing

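Results are limited by 3 libraries per genotype and by WT1, which lay nearest to the knockout libraries. No paired analysis was possible because the labels number no replicates: the numbers used here only name libraries in the order of deposit and pair none of them. The count of called loci, 0 with edgeR, was 61 with DESeq2 and 1 with limma on log2(FPKM + 0.1). At an unadjusted p under 0.05 edgeR gave 607 loci and DESeq2 1223. Of the 37 genes, 5 were higher at that threshold in edgeR, 8 in DESeq2, 9 with limma-voom, 10 with limma on log2(FPKM + 1), 9 at the pseudocount 0.1, 1 with WT1 against KO2 and KO3, and 9 with WT2 and WT3 against KO1 (a fit added after seeing the data). None was lower in edgeR, 1 in DESeq2 and 1 with WT1 against KO2 and KO3. Nr4a2 (1.07) was called by DESeq2 alone.

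Leaving out 1 library gave 270 to 2939 loci and 2 to 16 higher and 0 to 1 lower genes of the set at that threshold. The median was then 0.18 to 0.79 for the 37 genes, 0.12 to 0.54 for early and 0.29 to 0.91 for feedback genes. Without WT1 there were 2939 loci and 16 higher genes. The feedback median was 0.37 with the macrophage covariate, 0.12 with WT1 against KO2 and KO3 and 0.83 with WT2 and WT3 against KO1, where the median of all 37 was 0.77; with WT1 against KO2 and KO3 it was 0.027.

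Some log2 fold changes changed sign, and the cause was not tested. Klf4 was at 0.0044 in limma on log2(FPKM + 1) and at 0.0054 with the pseudocount 0.1. With the macrophage covariate the values were 0.10 (Fos), -0.046 (Jun), 0.062 (Dusp1), 0.41 (Dusp2) and 0.056 (Spred1). With WT2 and WT3 against KO1 they were 0.19 (Jund), 0.26 (Klf4) and 0.15 (Klf6). Over the fits that left out 1 library, or WT2, WT3 and KO1 together, the values ranged from -1.07 to 0.69 for Fos, -0.16 to 0.13 for Jun, -0.038 to 0.72 for Junb, -0.31 to 0.096 for Jund, -0.012 to 1.14 for Egr1, -0.22 to 0.080 for Ier2, -0.60 to 0.24 for Myc, -0.17 to 1.71 for Nr4a1, -0.53 to 0.18 for Klf4, -0.31 to 0.13 for Klf6, -0.32 to 1.69 for Maff, -1.18 to 0.36 for Zfp36, -0.76 to 0.23 for Dusp1, -0.92 to 1.33 for Dusp2, -0.50 to 0.99 for Dusp4, -0.39 to 1.82 for Dusp10, -0.24 to 1.19 for Spry2, -0.48 to 0.24 for Spred1 and -0.82 to 0.11 for Etv5. With WT2, WT3 and KO1 left out, the sign changed for Fos, Jun, Junb, Egr1, Nr4a1, Maff, Zfp36, Dusp1, Dusp2, Dusp4, Dusp10, Spry2, Spred1 and Etv5. No other gene of the set changed sign in any of the 18 alternatives; Maff had no value without FAIL loci, and Dusp2 none with at least 1 CPM in 3 libraries.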
